A study of Homo sapiens with 20 samples.

Results

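The p53 target and regulator genes are a list of 31 genes that p53 is known to switch on or that control p53 itself. They were chosen by name. A row of the array table stood for a member when its platform gene symbols included that member, and the row with the highest mean was taken where a gene had more than 1. By that rule 29 of the 31 members had a row, among 18384 features tested in all. FDXR and BTG2 had no row listed under their symbols, and their expression was not analysed here. Rows of 26 members carried 1 symbol. The rows of GDF15, AEN and PPM1D each carried another symbol too (MIR3189, MIR7-2 and ZNF184), so their values belong to the row of both. FAS was the member with more than 1 row.

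The arrays were run on WM793, an established human melanoma cell line from the vertical growth phase, in which the tumour grows into the dermis. The 5 lines were NME1-wild-type, which overexpresses the unmutated NME1 construct, NME1-E5A, NME1-K12Q and NME1-P96S, whose constructs are mutant, and Parent, the WM793 line without a construct. All were grown for 3 days before RNA was taken, and each line had 4 Affymetrix exon arrays, 20 in all. The submitters call the 4 arrays of a line technical replicates, and a construct has just 1 line. The p-values therefore weigh differences only against the spread among such arrays, and a difference between constructs and a difference between lines cannot be told apart. The sources used here do not give the promoter that drives the constructs. In lists below, the 4 NME1 lines are also called the wild-type, E5A, K12Q and P96S lines.

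The protein p53 is a transcription factor that is stabilised after DNA damage and other stress and binds DNA as a tetramer, each dimer contacting a half-site of 10 bases. Its targets stop the cell cycle, repair DNA, lower oxidative stress or start apoptosis, and some of them, above all MDM2, feed back to restrain p53. In melanoma p53 is often unmutated, and its inhibitors MDM2 and MDM4 are known as means of holding it down. NME1, a nucleoside diphosphate kinase, is known to suppress metastasis in melanoma and other tumours.

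The values are log2 expression values from RMA, so a difference of 1 is a doubling, and a value of 0.585 is the 1.5-fold limit used below. Array medians lay between 6.27 and 6.50, and the interquartile range of the values on an array, here called its spread, lay between 2.19 and 3.16. The 3 arrays of narrowest spread were NME1-K12Q replicate 2, NME1-P96S replicate 3 and Parent replicate 2. The row of NME1, which NME1-NME2 readthrough transcripts share, read 9.81, 9.86, 9.83 and 9.75 in NME1-wild-type, against 9.37, 9.40, 9.74 and 9.59 in Parent, a log2 difference of 0.28 that did not pass (limma adjusted p = 0.997). NME1-E5A, NME1-K12Q and NME1-P96S lay 0.26, 0.23 and 0.25 above Parent, and none passed, so this row did not set the labelled overexpressing lines apart from Parent at the threshold. Of 9 melanoma markers with a row, SOX10 had line means of 9.34 to 9.53 and S100B of 8.22 to 8.91. AXL had line means of 10.26 to 10.41 and NGFR of 6.49 to 6.86. The pigmentation markers MLANA and PMEL lay below every array median, with line means of 3.55 to 3.96 for MLANA and 4.63 to 4.86 for PMEL. So did MITF (5.59 to 5.75), the row of TYR and TYRL (3.70 to 3.79) and the row of S100A1 and S100A13 (5.34 to 5.66). Markers of other cell types had line means of 3.25 (PTPRC) to 5.87 (CD14) for 3 leukocyte markers, 4.28 (PECAM1) to 5.82 (KDR) for 4 endothelial ones and 3.53 (EPCAM) to 6.17 (the row that holds KRT14) for 4 of epithelium. The 5 fibroblast markers ran from 4.20 (DCN) to 6.98 (COL1A1), and the COL1A1 means, 6.65 to 6.98, lay above every array median. None of these markers changed in any pair of lines.

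In a fit with a mean for each line and no covariate, 0 of the 29 measured members changed between any 2 of the 5 lines. Of the other settings tried, array spread as a covariate called GDF15, and array weights called RPS27L and MDM4. Array spread together with the replicate block, tried after the data were seen, also called PLK2 in the F test. The shares of all features called with array weights, or with spread and block together, are not given here. GDF15 came nearest without these settings, lying lower in NME1-E5A than in each of the other NME1 lines on every array. RPS27L had the next largest range of line means, lying higher in NME1-wild-type than in Parent on every array. TP53INP1 came next after GDF15 in the F test. In the fit without covariate or weights, CDKN1A, MDM2 and MDM4, the genes most often read as p53 output or control, lay within 0.28 of Parent on the log2 scale in each NME1 line. Other settings placed MDM2 and MDM4 up to 0.41 and 0.48 above Parent in NME1-P96S, short of 1.5-fold.

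A change was called where the Benjamini-Hochberg adjusted p was under 0.05 and the fold was 1.5 or more, from a two-sided limma fit over all 20 arrays. Against Parent, 0 of 29 members changed in the wild-type, E5A, K12Q and P96S lines alike, where 0.0326%, 0.218%, 0.00544% and 0.103% of all features changed. Among the NME1 lines the count was also 0 of 29 in each pair. The share of all features was 0.207% for NME1-wild-type against NME1-E5A, 0.0381% against NME1-K12Q and 0.201% against NME1-P96S. It was 0.169% for NME1-E5A against NME1-K12Q, 0.239% for NME1-E5A against NME1-P96S and 0.277% for NME1-K12Q against NME1-P96S. At shares this small, a count of 0 among 29 members is near the background of the table. An F test over the 5 lines, which asks for any difference among them, called 0 of 29 members and 0.582% of all features.

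At an unadjusted p under 0.05, the limma fit gave 1 member for NME1-wild-type against Parent (RPS27L), where 1.38% of all features passed, and 1 for NME1-P96S against Parent (GDF15), where 3.14% did. It gave 0 for NME1-E5A and for NME1-K12Q against Parent, with 2.98% and 1.48% of all features. Between NME1 lines it gave GDF15 for NME1-wild-type against NME1-E5A (2.4% of all features) and for NME1-E5A against NME1-P96S (4.11%). It gave GDF15 and TP53INP1 for NME1-E5A against NME1-K12Q (2.79%). NME1-wild-type against NME1-K12Q, NME1-wild-type against NME1-P96S and NME1-K12Q against NME1-P96S gave 0 members, with 1.29%, 3.39% and 3.12% of all features. The F test gave GDF15 alone (3.29% of all features).

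The members lay on both sides of Parent in each line. Their median log2 difference was 0.04 in NME1-wild-type, where the median over all features was -0.03. It was -0.02 in NME1-E5A and -0.01 in NME1-K12Q, where all features had medians of -0.04 and -0.05. In NME1-P96S it was -0.0037, with -0.06 over all features. Members above Parent numbered 16, 14, 13 and 14 of 29 in the wild-type, E5A, K12Q and P96S lines (55.2%, 48.3%, 44.8% and 48.3%), and the shares of all features above Parent were 41.1%, 39.2%, 36.3% and 38.3%. The comparisons share the Parent arrays, so these counts are not independent of each other.

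The intervals show which sizes these arrays leave possible. The 95% confidence interval of the difference from Parent lay wholly within 1.5-fold for 19 members in NME1-wild-type, 19 in NME1-E5A, 21 in NME1-K12Q and 20 in NME1-P96S. These are 65.5%, 65.5%, 72.4% and 69.0% of the measured members, and the shares over all features were 68.0%, 67.0%, 70.2% and 58.7%. For the members outside that count, among them GDF15, RPS27L, PMAIP1, BBC3, POLH and TIGAR in every line, a difference of 1.5-fold was not excluded by the interval. The median SD between arrays of a line was 0.220 for members and 0.262 for all features, and the median range of the 5 line means was 0.206 and 0.234.

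**Figure D1:**
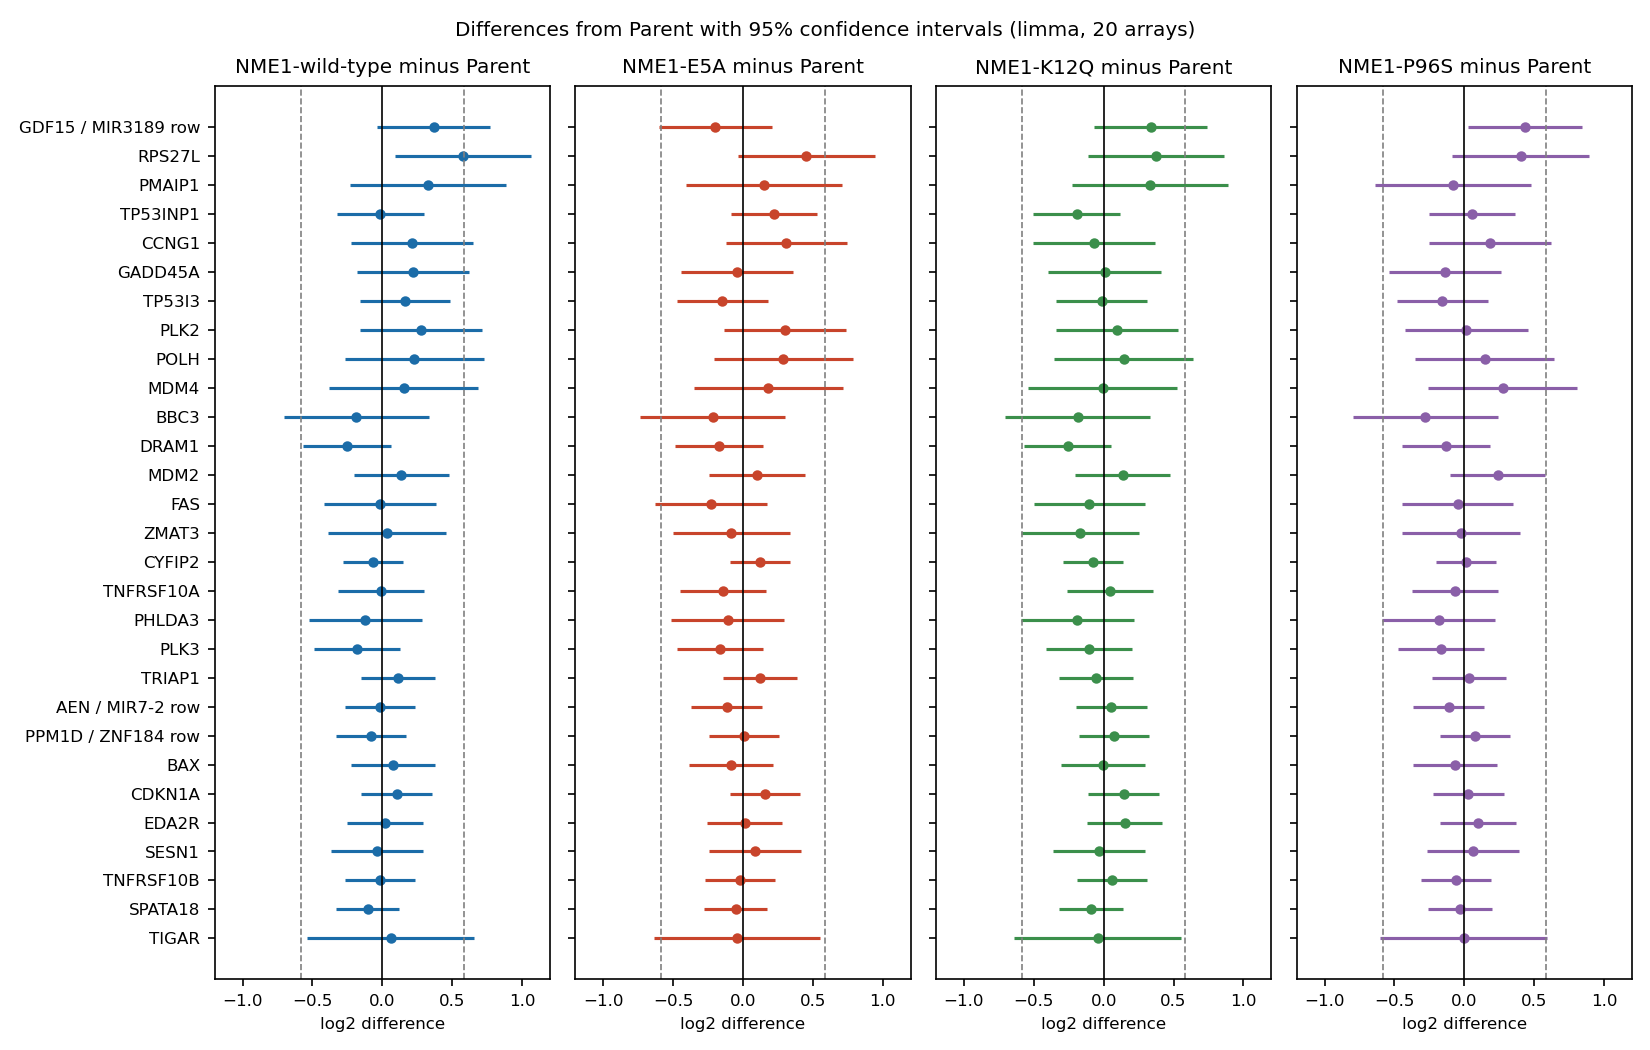
Log2 difference from Parent (x axis) of the 29 measured members (rows) in each NME1 line, as points with 95% confidence intervals from the limma fit over 20 arrays, with dashed lines at 1.5-fold. Nearly all intervals cover 0. The exceptions are RPS27L in NME1-wild-type at 0.58 and GDF15 in NME1-P96S at 0.43, neither of which passed after adjustment.

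GDF15, a secreted stress cytokine of the TGF-beta superfamily and a well known p53 target, had the widest spread of line means of all members. Its row read 6.97, 6.88, 6.46 and 6.52 in NME1-wild-type and 6.24, 6.07, 6.08 and 6.18 in NME1-E5A. It read 6.78, 7.07, 6.47 and 6.38 in NME1-K12Q, 6.62, 6.53, 7.18 and 6.76 in NME1-P96S, and 6.25, 6.86, 6.34 and 5.91 in Parent. The NME1-E5A arrays lay closely together, below every array of the other 3 NME1 lines and inside the range of Parent. The order of the line means was NME1-P96S, NME1-wild-type, NME1-K12Q, Parent and NME1-E5A, and the first 3 of these did not differ beyond their spread.

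NME1-E5A minus NME1-P96S was -0.63 on the log2 scale (SE 0.194, 95% interval -1.04 to -0.23), past the 1.5-fold size but not the adjusted p (limma adjusted p = 0.386). NME1-wild-type minus NME1-E5A was 0.57 (adjusted p = 0.900), and NME1-E5A minus NME1-K12Q was -0.54 (adjusted p = 1.000), both by the same limma fit. Each of these 3 comparisons gave an exact two-sided permutation p of 0.0286, the smallest that 4 arrays against 4 can give, and 0.0952 after adjustment over the 10 pairs of lines. NME1-P96S minus Parent was 0.43 (SE 0.194, limma adjusted p = 0.850), and NME1-E5A minus Parent was -0.20 (adjusted p = 1.000). No comparison of GDF15 therefore met the rule for a changed gene in this fit.

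Over all 29 members and 10 pairs, the arrays of the lines failed to overlap 4 times. GDF15 accounts for 3 of these, and RPS27L in NME1-wild-type against Parent for the other. The share of all features without overlap was 0.827% for NME1-wild-type, 1.99% for NME1-E5A, 1.17% for NME1-K12Q and 1.23% for NME1-P96S against Parent. For NME1-wild-type it was 3.3% against NME1-E5A, 1.34% against NME1-K12Q and 1.83% against NME1-P96S. For NME1-E5A it was 3.54% against NME1-K12Q and 3.01% against NME1-P96S, and for NME1-K12Q against NME1-P96S it was 2.22%. In each pair with a separated member, that is 1 of 29 members.

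The GDF15 row moved with the spread of the array. Its 2 highest values, 7.18 and 7.07, were on the 2 NME1 arrays of narrowest spread, NME1-P96S replicate 3 and NME1-K12Q replicate 2, and the highest Parent value was on the narrowest Parent array. The NME1-E5A arrays were all of middling spread. The spread of each array as a covariate was an alternative fitted for every member, chosen with earlier results of these data known. With it, GDF15 passed in the F test over the 5 lines (limma adjusted p = 0.000194). NME1-E5A minus NME1-P96S was then -0.74 (SE 0.0951, limma adjusted p = 0.000157). NME1-P96S minus Parent was 0.64 (SE 0.0982, adjusted p = 0.00268), so that both met the rule for a changed gene. GDF15 was the single member of 29 to do so, where 0.473% and 0.201% of all features changed in those pairs.

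NME1-wild-type minus NME1-E5A was 0.56 in that fit (limma adjusted p = 0.0033) and NME1-E5A minus NME1-K12Q was -0.52 (adjusted p = 0.00675), both short of 1.5-fold. NME1-E5A minus Parent was -0.10 (limma adjusted p = 0.983), close to no difference. By adjusted p alone the covariate fit called 1.37% of all features for NME1-E5A against NME1-P96S, 0.408% for NME1-P96S against Parent, 0.74% for NME1-wild-type against NME1-E5A, 0.832% for NME1-E5A against NME1-K12Q and 1.94% in the F test. The GDF15 calls hold with the covariate and not in the fit without it or with quantile normalisation.

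Sequence upstream of GDF15 and RPS27L, the members whose arrays separated lines, is printed here, from RefSeq on GRCh38.p14. The choice of these genes and the motif search were made after the values were seen. Capitals mark TATAAA, searched on the gene's strand, in the 250 bases before the start of GDF15 (chr19:18385908-18386157, plus strand), and a p53 half-site, a consensus of 10 letters that reads the same on both strands, before that of RPS27L (chr15:63157478-63157727, minus strand).
GDF15: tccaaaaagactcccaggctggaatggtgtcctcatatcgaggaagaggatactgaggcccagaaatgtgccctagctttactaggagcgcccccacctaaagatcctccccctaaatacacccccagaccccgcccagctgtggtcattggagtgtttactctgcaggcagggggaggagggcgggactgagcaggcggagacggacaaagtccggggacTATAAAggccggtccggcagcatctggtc
RPS27L: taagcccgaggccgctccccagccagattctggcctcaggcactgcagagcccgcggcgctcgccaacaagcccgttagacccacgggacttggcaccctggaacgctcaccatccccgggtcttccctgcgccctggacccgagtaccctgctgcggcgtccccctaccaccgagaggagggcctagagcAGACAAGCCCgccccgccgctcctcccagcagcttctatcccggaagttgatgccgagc

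Windows were found for 26 of the 31 members, and each ran from 250 bases before to 50 after a start. The half-site was in 6 of 38 member windows (15.8%), against 6.65% of 34796 windows of all genes. Some members had more than 1 window. The list was made of genes that p53 is known to switch on or that control p53, so a higher share is no independent finding. TATAAA was in 2.63% of member windows, against 7.37% of all windows on the gene's strand and 11.6% on either strand. FDXR, which had no expression row, is among the members with the half-site. Of the measured members, 5 had the half-site. Capitals mark it, with its neighbours in lower case, for the other 4, which encode a kinase (PLK2), an antioxidant sestrin (SESN1), a death receptor (FAS) and an exonuclease (AEN). The stretches printed, each a part of a window, are PLK2 at chr5:58460199-58460228 and SESN1 at chr6:109009018-109009047, both on the minus strand, and FAS at chr10:88991299-88991328 and AEN at chr15:88621296-88621325, both on the plus strand.
PLK2: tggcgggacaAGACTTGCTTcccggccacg
SESN1: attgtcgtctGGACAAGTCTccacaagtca
FAS: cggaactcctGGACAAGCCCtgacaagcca
AEN: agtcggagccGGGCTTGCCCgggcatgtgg
These matches are letters in a window. No measured member, with the half-site or without it, passed in any pair in the fit without covariate or weights. That count therefore says nothing about the half-site. Differences from Parent ran from 0.37 to 0.58 for RPS27L, 0.01 to 0.30 for PLK2, -0.23 to -0.02 for FAS, -0.04 to 0.08 for SESN1 and -0.12 to 0.05 for AEN over the 4 NME1 lines. PLK2 in NME1-P96S turned to -0.20 with array spread as a covariate.

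RPS27L encodes a ribosomal protein related to RPS27 that p53 induces and that is known to bind MDM2. It read 8.83, 8.64, 8.56 and 8.44 in NME1-wild-type, 8.78, 8.23, 8.74 and 8.23 in NME1-E5A and 8.53, 7.95, 8.69 and 8.49 in NME1-K12Q. It read 9.03, 8.58, 7.73 and 8.43 in NME1-P96S and 8.25, 7.57, 7.98 and 8.36 in Parent. All NME1-wild-type arrays lay above all Parent arrays, while the other NME1 lines overlapped both.

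NME1-wild-type minus Parent was 0.58 (SE 0.234, limma adjusted p = 0.997), with an exact two-sided permutation p of 0.0286 and 0.286 after adjustment over the 10 pairs. The other NME1 lines lay 0.45, 0.37 and 0.40 above Parent in NME1-E5A, NME1-K12Q and NME1-P96S (limma adjusted p of 1.000, 1.000 and 0.850). The NME1-P96S value was 0.18 with array spread as a covariate (limma adjusted p = 0.940) and 0.68 with array weights (adjusted p = 0.0192), where it met the rule for a change. It was 0.21 without NME1-P96S replicate 1, 0.64 without NME1-P96S replicate 3 and 0.25 without Parent replicate 2, with no call. RPS27L was the highest member of the list against Parent in NME1-wild-type, NME1-E5A and NME1-K12Q. Its lowest values were on the narrowest arrays of NME1-K12Q, NME1-P96S and Parent, and without those 3 arrays NME1-wild-type minus Parent was 0.42 (limma adjusted p = 1.000).

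**Figure D2:**
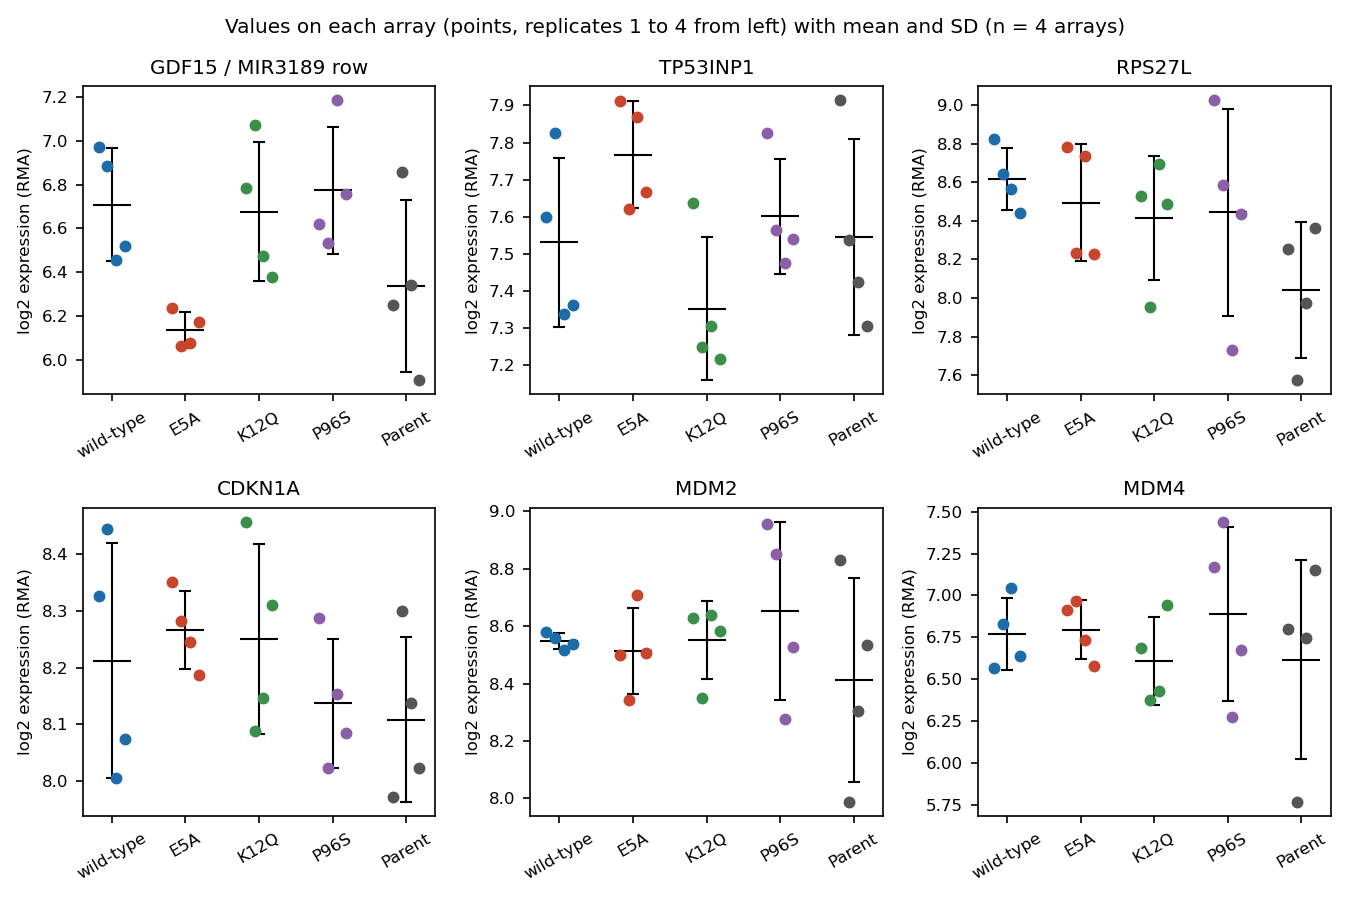
Log2 RMA expression (y axis, not starting at 0) on each array of the NME1-wild-type, NME1-E5A, NME1-K12Q, NME1-P96S and Parent lines (x axis) for 6 members, with bars at the mean and 1 SD either side (n = 4 arrays). GDF15 in NME1-E5A lies between 6.07 and 6.24, below all arrays of the other NME1 lines, while CDKN1A, MDM2 and MDM4 overlap in all lines.

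The regulators of p53 came next. MDM2, the ubiquitin ligase that marks p53 for degradation and is itself a p53 target, read 8.58, 8.56, 8.52 and 8.54 in NME1-wild-type and 8.50, 8.34, 8.71 and 8.51 in NME1-E5A. It read 8.63, 8.35, 8.64 and 8.58 in NME1-K12Q, 8.96, 8.85, 8.28 and 8.53 in NME1-P96S, and 8.83, 7.99, 8.30 and 8.53 in Parent. The NME1-wild-type arrays were nearly equal, and the Parent arrays spanned those of NME1-wild-type, NME1-E5A and NME1-K12Q. The differences from Parent were 0.14, 0.10, 0.14 and 0.24 in the wild-type, E5A, K12Q and P96S lines (SE 0.163), and all 4 intervals lay within 1.5-fold. Over the 30 other settings the NME1-P96S value ran from 0.09 to 0.41, short of 1.5-fold. Its lowest limma adjusted p among them was 0.0331, so by adjusted p alone MDM2 passed there. The share of all features passing in that setting is not given here. With array spread as a covariate the NME1-P96S value was 0.09 (limma adjusted p = 0.958).

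MDM4, the MDM2 relative that blocks the p53 activation domain, read 6.57, 6.83, 7.05 and 6.64 in NME1-wild-type, 6.91, 6.97, 6.73 and 6.58 in NME1-E5A and 6.69, 6.37, 6.43 and 6.95 in NME1-K12Q. It read 7.17, 7.44, 6.27 and 6.68 in NME1-P96S and 6.80, 5.77, 6.74 and 7.15 in Parent. The Parent value of 5.77 was on the narrowest array and lay far below the other 3. No line differed from Parent by more than 0.28 (NME1-P96S, SE 0.255, 95% interval -0.26 to 0.81), so a 1.5-fold rise in NME1-P96S was not excluded by the interval. With array spread as a covariate NME1-P96S minus Parent was -0.0083 (limma adjusted p = 0.998). NME1-K12Q minus NME1-P96S was -0.28 without the covariate and -0.11 with it.

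CCNG1, cyclin G1, which brings a phosphatase to MDM2, read 8.67, 8.38, 8.53 and 8.35 in NME1-wild-type and 8.72, 8.50, 8.75 and 8.34 in NME1-E5A. It read 8.34, 7.76, 8.23 and 8.46 in NME1-K12Q, 8.75, 8.64, 7.97 and 8.44 in NME1-P96S, and 8.33, 7.60, 8.47 and 8.67 in Parent. Its largest difference from Parent was 0.31 in NME1-E5A (SE 0.208, limma adjusted p = 1.000). PPM1D, the phosphatase WIP1 that switches off p53 signalling, shares its row with ZNF184 and stayed within -0.08 to 0.08 of Parent in the 4 lines. Of the 4 regulators, 3, 4, 2 and 4 lay above Parent in the wild-type, E5A, K12Q and P96S lines, with no call. With array spread as a covariate, CCNG1 and MDM4 in NME1-P96S lay below Parent, at -0.038 and -0.0083, and MDM2 above it, at 0.09.

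Of the genes that stop the cell cycle, CDKN1A encodes the cyclin-dependent kinase inhibitor p21. It read 8.33, 8.44, 8.01 and 8.07 in NME1-wild-type, 8.35, 8.28, 8.25 and 8.19 in NME1-E5A and 8.46, 8.09, 8.15 and 8.31 in NME1-K12Q. It read 8.29, 8.02, 8.15 and 8.08 in NME1-P96S and 7.97, 8.30, 8.14 and 8.02 in Parent. All 5 lines overlapped. The differences from Parent were 0.10, 0.16, 0.14 and 0.03 in the wild-type, E5A, K12Q and P96S lines (SE 0.121), and the interval with the highest upper bound, in NME1-E5A, ran from -0.10 to 0.41, within 1.5-fold.

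GADD45A, a stress sensor that binds PCNA, read 7.23, 7.33, 6.63 and 6.77 in NME1-wild-type, 7.13, 6.69, 6.49 and 6.61 in NME1-E5A and 7.10, 6.63, 6.59 and 6.81 in NME1-K12Q. It read 7.07, 6.80, 6.18 and 6.50 in NME1-P96S and 6.79, 6.63, 6.82 and 6.85 in Parent. The Parent arrays were the closest together, and the arrays of each NME1 line overlapped them. NME1-wild-type minus Parent was 0.22 (SE 0.193, limma adjusted p = 0.997).

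PLK2, a polo-like kinase induced by p53, read 9.26, 9.07, 9.16 and 8.91 in NME1-wild-type, 9.28, 9.13, 9.28 and 8.80 in NME1-E5A and 9.20, 8.44, 9.03 and 9.01 in NME1-K12Q. It read 9.26, 9.04, 8.33 and 8.71 in NME1-P96S and 8.90, 8.30, 8.87 and 9.22 in Parent. Its 3 lowest values were those of the 3 narrowest arrays. The largest difference from Parent was 0.30 in NME1-E5A (SE 0.210, limma adjusted p = 1.000). PLK3, a related kinase, had line means of 6.71, 6.73, 6.79 and 6.73 in the wild-type, E5A, K12Q and P96S lines, against 6.89 in Parent, with no call.

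Of the genes for apoptosis, PMAIP1, which encodes the BH3-only protein NOXA, varied most between arrays after TIGAR. It read 8.53, 8.05, 7.65 and 7.56 in NME1-wild-type, 8.27, 7.40, 7.84 and 7.59 in NME1-E5A and 8.47, 7.68, 7.82 and 7.87 in NME1-K12Q. It read 8.26, 7.47, 7.08 and 7.35 in NME1-P96S and 8.16, 7.57, 7.46 and 7.31 in Parent. Replicate 1 was the highest array in all 5 lines. NME1-wild-type and NME1-K12Q lay 0.32 and 0.33 above Parent (SE 0.267, limma adjusted p of 0.997 and 1.000). The SD between arrays of a line, 0.413, includes what arrays of 1 number share.

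TP53INP1, a nuclear protein that promotes p53 phosphorylation and cell death, read 7.60, 7.83, 7.34 and 7.36 in NME1-wild-type, 7.91, 7.62, 7.87 and 7.67 in NME1-E5A and 7.64, 7.25, 7.31 and 7.22 in NME1-K12Q. It read 7.83, 7.56, 7.48 and 7.54 in NME1-P96S and 7.91, 7.54, 7.43 and 7.31 in Parent. NME1-E5A and NME1-K12Q met only at their edges, at 7.62 and 7.64. NME1-E5A minus NME1-K12Q was 0.42 (limma adjusted p = 0.995, exact two-sided permutation p = 0.0571), and neither line differed from Parent by more than 0.22.

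CYFIP2, a cytoplasmic protein linked to p53-dependent apoptosis, read 6.07, 6.20, 6.16 and 6.24 in NME1-wild-type, 6.23, 6.52, 6.30 and 6.38 in NME1-E5A and 6.07, 6.13, 6.16 and 6.27 in NME1-K12Q. It read 6.11, 6.43, 6.19 and 6.26 in NME1-P96S and 6.18, 6.16, 6.23 and 6.37 in Parent. It had the smallest SD between arrays of a line among the members, 0.104, and its line means spanned 0.200. The NME1-E5A mean was the highest, 0.12 above Parent (SE 0.103, limma adjusted p = 1.000).

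The row of AEN, a nuclease active in apoptosis, and MIR7-2 read 7.42, 7.44, 7.26 and 7.53 in NME1-wild-type, 7.47, 7.19, 7.31 and 7.29 in NME1-E5A and 7.57, 7.49, 7.47 and 7.42 in NME1-K12Q. It read 7.55, 7.19, 7.31 and 7.22 in NME1-P96S and 7.50, 7.72, 7.26 and 7.24 in Parent. All differences from Parent were between -0.12 and 0.05, with every interval within 1.5-fold. BAX, the effector that opens the outer mitochondrial membrane, had line means of 9.01, 8.85, 8.93 and 8.87 in the wild-type, E5A, K12Q and P96S lines, against 8.93 in Parent. BBC3, which encodes the BH3-only protein PUMA, had its largest difference from Parent in NME1-P96S, -0.28 (limma adjusted p = 0.850), and it is among the members that moved most with array spread.

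The death receptors did not pass in any pair. FAS, the receptor of FAS ligand, had a mean of 6.29 ± 0.25 in NME1-E5A, against 6.52 ± 0.17 in Parent (SD, n = 4 arrays each), its largest difference. TNFRSF10B, the TRAIL receptor DR5, had line means of 8.96, 8.95, 9.04 and 8.91 in the wild-type, E5A, K12Q and P96S lines, against 8.97 in Parent. TNFRSF10A, the TRAIL receptor DR4, was furthest from Parent in NME1-E5A, with means of 5.52 ± 0.13 in NME1-E5A and 5.67 ± 0.21 in Parent. EDA2R, an ectodysplasin receptor, was furthest in NME1-K12Q, 0.15 above Parent. For TNFRSF10A, TNFRSF10B and EDA2R every interval against Parent lay within 1.5-fold.

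TP53I3, a quinone oxidoreductase, led the genes of metabolism and oxidative stress in the F test. It read 7.85, 8.14, 7.51 and 7.85 in NME1-wild-type, 7.83, 7.42, 7.38 and 7.50 in NME1-E5A and 8.01, 7.39, 7.52 and 7.72 in NME1-K12Q. It read 7.71, 7.50, 7.27 and 7.59 in NME1-P96S and 7.54, 7.68, 7.64 and 7.86 in Parent. NME1-wild-type lay 0.16 above Parent, and NME1-E5A and NME1-P96S 0.15 and 0.16 below it, all within the arrays' overlap. TIGAR, a fructose bisphosphatase that slows glycolysis, had the largest SD between arrays of a line of any member, 0.445, and the smallest range of line means, 0.104. SESN1 stayed within -0.04 to 0.08 of Parent.

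DRAM1, a lysosomal membrane protein that p53 uses to start autophagy, read 8.60, 8.56, 8.27 and 8.64 in NME1-wild-type, 8.61, 8.54, 8.46 and 8.78 in NME1-E5A and 8.50, 8.67, 8.48 and 8.40 in NME1-K12Q. It read 8.45, 8.45, 8.95 and 8.71 in NME1-P96S and 8.61, 9.19, 8.80 and 8.49 in Parent. The differences were -0.25, -0.17, -0.26 and -0.13 in the wild-type, E5A, K12Q and P96S lines (SE 0.150), none passing. The Parent value of 9.19, highest of all 20 arrays, was on the narrowest array.

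The last members have single roles. POLH, the polymerase that copies past ultraviolet damage, had its largest difference from Parent in NME1-E5A, 0.29, with a Parent range of 6.96 to 8.52. ZMAT3, an RNA-binding protein, and PHLDA3, an inhibitor of AKT, were furthest from Parent in NME1-K12Q, at -0.17 and -0.19. TRIAP1, which opposes apoptosis, had line means between 8.44 and 8.61. SPATA18, which acts in mitochondrial quality control, had its largest difference from Parent in NME1-wild-type, -0.11. None of these 5 passed in any pair of lines.

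Array spread and replicate number moved with many members, and their part in the results was not tested beyond the covariate and block fits. In the fit with spread as a covariate, the slope on spread passed at an adjusted p under 0.05 for 16 of 29 members, 10 upward and 6 downward. Of all features 73.4% passed, 4931 upward and 8567 downward. BBC3 had the steepest downward slope, -1.42 log2 units for each unit of spread (SE 0.113), and MDM4 the steepest upward, 1.34. CDKN1A had a slope of -0.12 that did not pass. TIGAR and PMAIP1 were highest on replicate 1 in all 5 lines, and TRIAP1 was lowest on replicate 4 in all 5. Of all features, 3.27% were highest on replicate 1 in all 5 lines and 5.02% highest on some same number. The shares were 0.25% for lowest on replicate 4 and 2.1% for lowest on some same number. These slopes and replicate counts were computed after the values were seen.

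**Figure D3:**
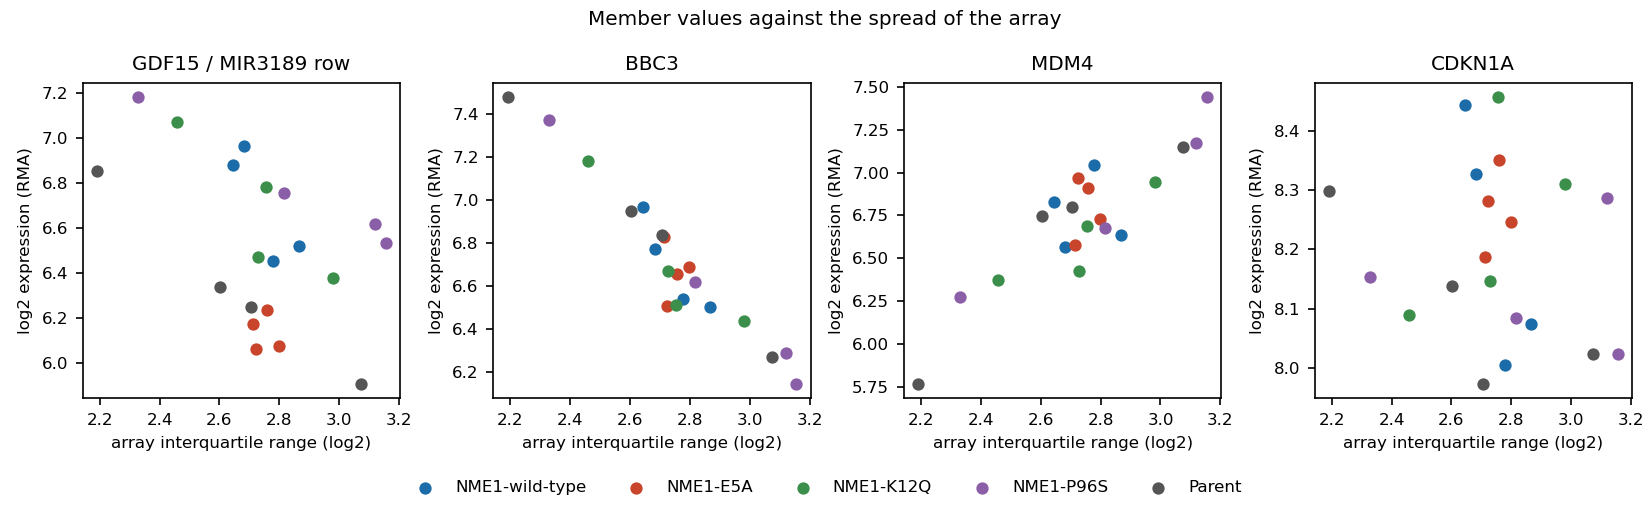
Log2 RMA expression (y axis, not starting at 0) of 4 members against the interquartile range of the array (x axis, log2), with 1 point per array coloured by line. BBC3 falls and MDM4 climbs with spread, CDKN1A shows no slope, and the NME1-E5A arrays of GDF15 lie below the other NME1 lines at like spread.

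**Figure D4:**
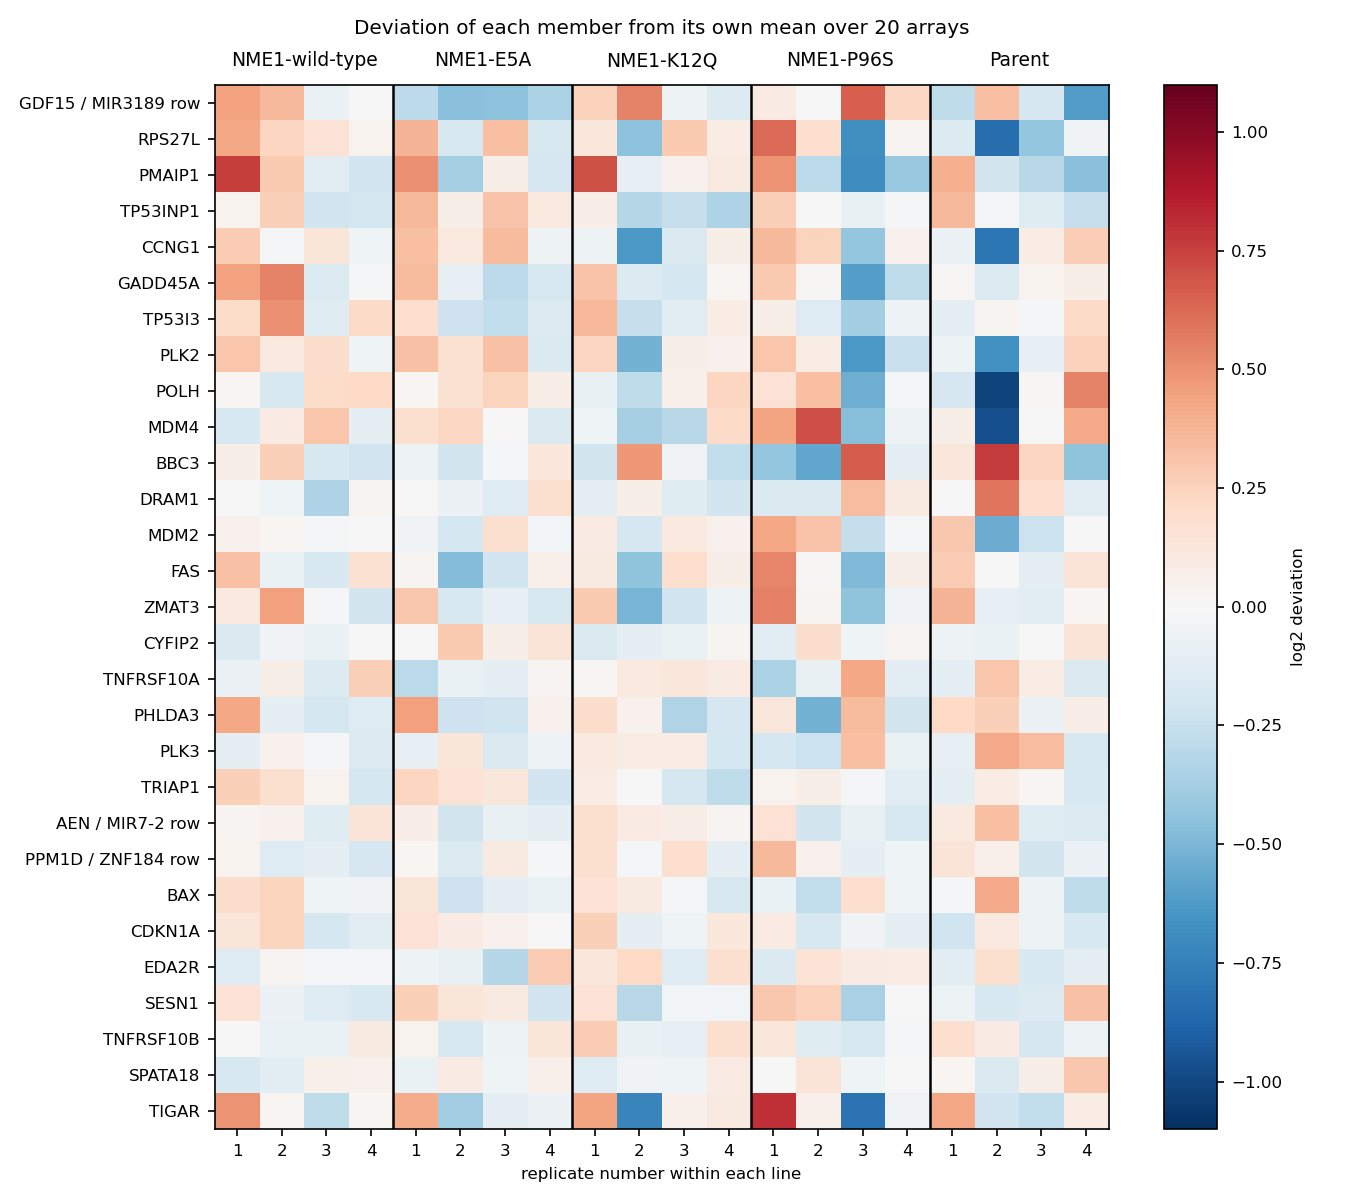
Deviation of each of the 29 measured members (rows, in order of the range of line means) from its own mean over 20 arrays (colour, log2), with 4 arrays per line. GDF15 is blue on all 4 NME1-E5A arrays, and the darkest blue cells are those of POLH at 6.96 and MDM4 at 5.77 on Parent replicate 2, the array of narrowest spread.

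A list of further p53 pathway genes was read in the same fit. Of 56 such genes, 52 had a row. The others were not analysed here. Of the 52, 1 rose and 0 fell in NME1-E5A against Parent, and 1 rose and 0 fell in NME1-E5A against NME1-P96S, while 0 changed in each of the other 8 pairs. Of all features, 0.218% and 0.239% changed in the 2 pairs with a call. The gene was TGFA in both.

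TGFA, a ligand of the epidermal growth factor receptor and a p53 target in some cells, read 5.49, 5.96, 5.72 and 5.64 in NME1-wild-type, 6.25, 6.20, 6.24 and 6.19 in NME1-E5A and 6.07, 5.79, 5.97 and 6.06 in NME1-K12Q. It read 5.64, 5.54, 5.66 and 5.60 in NME1-P96S and 5.43, 5.80, 5.49 and 5.46 in Parent. NME1-E5A lay above the other 4 lines on every array, with NME1-K12Q next by mean, 0.43 above Parent (limma adjusted p = 1.000). In NME1-E5A it rose by 0.67 against Parent (SE 0.116, limma adjusted p = 0.00909) and by 0.61 against NME1-P96S (adjusted p = 0.0197). Without NME1-E5A replicate 3 the call against Parent was lost (limma adjusted p = 0.0504). The call against NME1-P96S was lost in 7 of 20 fits that left out 1 array, those without any of the 4 NME1-E5A arrays and those without NME1-P96S replicates 1, 2 or 4 (highest adjusted p = 0.0893).

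Of the regulators, the row shared by NPAT and by ATM, the kinase that phosphorylates p53 after double-strand breaks, read 7.42, 7.47, 7.60 and 7.90 in NME1-wild-type, 7.44, 7.49, 7.63 and 7.63 in NME1-E5A and 7.75, 7.52, 7.83 and 7.95 in NME1-K12Q. It read 8.17, 8.17, 7.30 and 7.94 in NME1-P96S and 7.93, 6.95, 7.30 and 7.73 in Parent. NME1-P96S minus Parent was 0.42 (SE 0.202, limma adjusted p = 0.850), with overlapping arrays. CDKN2A, whose alternative product ARF inhibits MDM2, read 8.09, 8.14, 7.66 and 7.86 in NME1-wild-type, 8.19, 7.76, 7.84 and 7.94 in NME1-E5A and 8.02, 7.83, 7.73 and 7.81 in NME1-K12Q. It read 7.94, 7.56, 7.97 and 7.84 in NME1-P96S and 7.69, 8.30, 7.84 and 7.61 in Parent. Its differences from Parent ran from -0.03 to 0.07, with all intervals within 1.5-fold.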

How the data were processed

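The authors normalised the arrays with RMA in R, as the design text and the submitters' notes on processing state. The deposited values are log2 expression values, 1 row per transcript cluster and 18708 rows in all. The notes also name limma. Versions, genome build and annotation release are not given in the sources used here. Lines and replicate numbers came from the sample titles.

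Rows were named with the platform annotation: 14735 carried 1 symbol, 2873 several, and 1100 were not listed. For a gene with several rows, the row of highest mean was kept, which left out 324 rows and gave 18384 features. A limma model (version 3.58.1, R 4.3.3) with 1 mean per line was run on all 20 arrays, with 15 residual degrees of freedom, and 10 pairs of lines were compared two-sided, with Benjamini-Hochberg adjustment over all 18384 features in each pair. Changed means an adjusted p under 0.05 and at least 1.5-fold. Named members were also tested with exact permutations of 4 against 4 arrays (Python 3.11.15, numpy 2.4.6). The fit was tested on simulated data. No sequencing depth applies to arrays, and their number limits the precision.

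The members, gene lists, tests and alternatives were chosen with earlier results of these data known. Given per array were CDKN1A, MDM2, MDM4, any member that passed, and the members of largest F to a total of 14. Of the pathway genes, ATM, CDKN2A and those that passed are named; some listed items are not reported here. Alternatives were quantile normalisation, median centring, array spread as covariate, replicate block, array weights, fewer arrays, a filter on dim rows, other thresholds and all rows of a gene.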

Additional observations from a re-analysis of the deposited data

Results flagged for a closer look

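In each line the highest and the lowest array of each member was compared with the other 3 by Dixon's test for an outlying value, over 145 groups of 4 arrays. It picked out 2 groups (1.38%), where chance alone gives about 1 group in 20. PHLDA3 stood at 7.64 on replicate 1 of NME1-wild-type, where the other arrays of that line lay between 7.02 and 7.12. PLK3 stood at 6.58 on replicate 4 of NME1-K12Q, where the other arrays lay between 6.85 and 6.88.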

How the results depend on the processing

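Of 11 counts of changed members, each 0 in the reported fit, 4 moved in 2 of 30 other settings. With array spread as a covariate, 1 member changed in NME1-P96S against Parent, in NME1-E5A against NME1-P96S and in the F test, GDF15 each time. With array weights, 1 changed in NME1-P96S against Parent (RPS27L, 0.68, limma adjusted p = 0.0192, against 0.40 in the reported fit). With them 1 also changed in NME1-K12Q against NME1-P96S (MDM4). The share of all features called in the weighted fit is not given here, so these counts have no background beside them. The causes were not tested. The counts stayed at 0 in all fits that left out 1 array, and GDF15 in NME1-E5A against NME1-P96S then ranged from -0.71 to -0.50. With the replicate block they were also 0. After line means were removed, same-numbered arrays of different lines correlated between -0.849 and 0.810 (median 0.235). Differently numbered ones correlated between -0.831 and 0.860 (median -0.054). Same-numbered arrays thus tended to be more alike, but with wide overlap. The design text names no block, and the numbers were not taken as pairs in the reported fit. With the block PMAIP1's SE against Parent is 0.132 (adjusted p of 0.992 in NME1-wild-type and 1.000 in NME1-K12Q). Chosen after the data were seen, the covariate fits without 1 array, with median centring and with the replicate block each gave 1 (GDF15) for NME1-P96S against Parent and for NME1-E5A against NME1-P96S. In the covariate fits without 1 array, the count was 0 to 1 for NME1-wild-type against NME1-E5A (1 without NME1-wild-type replicate 3 or NME1-E5A replicate 1) and for NME1-E5A against NME1-K12Q (1 without NME1-K12Q replicate 3). In the F test these covariate fits gave 1 except with the replicate block, where it was 2 (GDF15 and PLK2). The shares of all features called in the covariate fits chosen after the data were seen are not given here. TGFA lost its call against Parent with limma's treat test against 1.5-fold and with only the 8 arrays of the pair (adjusted p = 0.193), and against NME1-P96S with both and with quantile normalisation (adjusted p = 0.0514). Of 62 differences, 0 called values changed sign. 26 that were not called did so in 1 or more of the 30 settings, the largest of them 0.28. The filter on dim rows kept 24 members. Signal over background is not in the values used here.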
